A study of Mus musculus with 18 samples.

Results

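The 9 genes described here write, maintain or remove 5-methylcytosine, and were followed in mouse embryonic fibroblasts (MEFs). They were listed by name, with no measured value as a criterion, though earlier results of these data were known. They are the DNA methyltransferases Dnmt1, Dnmt3a and Dnmt3b, the UHRF proteins Uhrf1 and Uhrf2, the TET dioxygenases Tet1, Tet2 and Tet3, and the glycosylase gene Tdg. All 9 of 9 were found among the 47937 gene IDs of the deposited count table, and 8 passed the filter on low counts. Tet1 did not. The study asked what happens when transcription of the major satellite repeat (MSR), the tandem repeat of pericentromeric heterochromatin, is changed. Its MEF lines express a doxycycline-inducible dCas9, a Cas9 that binds but does not cut DNA, aimed at the MSR. They differ in the fused effector: none is named for the control (dCas9-control), KM is the transcriptional repressor (dCas9-KM), and VPR is the transcriptional activator (dCas9-VPR). All 3 lines grew in DMEM with tetracycline-free serum and hygromycin. Each line gave 3 libraries without doxycycline and 3 with it, so there were 18 libraries in 6 groups of 3. Doxycycline was given for 24 h to the control line (10 ng/ml) and to the repressor line (100 ng/ml), but for 6 h to the activator line (10 ng/ml). The control line was not induced for 6 h or at 100 ng/ml, so the effector cannot be told apart from time in the activator line or from dose in the repressor line. The labels number the libraries without saying that they were separate cultures, so the spread that p-values measure is that of the libraries and may be technical. The labels do not say whether each line is 1 clone.

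As background, DNMT1 copies methylation onto the new strand after replication, and UHRF1 brings it to hemimethylated sites. UHRF2 is the paralog of UHRF1 and binds 5-hydroxymethylcytosine. DNMT3A and DNMT3B set new methylation. TET enzymes oxidise 5-methylcytosine, and TDG excises the further oxidised bases for base excision repair. In mouse cells the major satellite is normally methylated, and DNMT3B acts on it. The libraries measured RNA only, so neither methylation nor protein was measured.

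The RefSeq promoter table (GRCm38.p6) held 14 start sites for the 9 genes, and the 250 bases upstream of each were searched on both strands for short words. These were the E2F words TTTCGCGC, TTTGGCGC, TTTCCCGC and TTTGGCGG, the CCAAT box, the GC box GGGCGG and the CG dinucleotide. The 2 windows with an E2F word were 1 each of Dnmt1 and Uhrf1, the maintenance pair, and both held TTTCGCGC, which 0.256% of the 32851 windows searched contain. Any of the 4 E2F words is in 1.96% of them, CCAAT in 33.8% and GGGCGG in 32.7%, and the median window holds 6 CG. The sequences below set the maintenance pair beside Uhrf2, Dnmt3b and Tet3, the 3 genes with the largest decreases in the induced activator line. Capitals mark the E2F word, CCAAT and GGGCGG on either strand, and each runs 5′ to 3′ on the strand of its gene. The Dnmt1 line is a 29-base stretch (chr9:20952835-20952863, minus strand) that ends in the E2F word on the reverse strand and lies in an exon annotated from a start farther upstream. The Uhrf1 line (chr17:56304063-56304312, plus strand) ends at the base before the start site and lies in no annotated exon. The Uhrf2 (chr19:30030263-30030512, plus) and Dnmt3b (chr2:153649199-153649448, plus) lines are likewise free of exons. The Tet3 line is the 76 bases nearest the start (chr6:83441679-83441754, minus), the part outside annotated exons. This start, the only one of Tet3 searched, lies inside the gene model, which begins farther upstream at 83459084.
Dnmt1: cctcCCAATTGGtttccgcgcGCGCGAAA
Uhrf1: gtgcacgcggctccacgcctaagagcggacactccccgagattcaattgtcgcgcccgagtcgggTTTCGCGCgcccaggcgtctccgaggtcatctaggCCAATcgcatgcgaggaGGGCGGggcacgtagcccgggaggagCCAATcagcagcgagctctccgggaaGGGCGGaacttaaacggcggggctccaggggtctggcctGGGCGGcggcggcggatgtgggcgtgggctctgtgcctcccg
Uhrf2: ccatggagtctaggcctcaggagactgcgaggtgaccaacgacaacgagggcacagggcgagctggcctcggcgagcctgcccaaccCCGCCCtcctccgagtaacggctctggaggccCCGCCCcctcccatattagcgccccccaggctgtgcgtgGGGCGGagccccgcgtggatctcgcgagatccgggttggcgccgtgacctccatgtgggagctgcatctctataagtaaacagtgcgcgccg
Dnmt3b: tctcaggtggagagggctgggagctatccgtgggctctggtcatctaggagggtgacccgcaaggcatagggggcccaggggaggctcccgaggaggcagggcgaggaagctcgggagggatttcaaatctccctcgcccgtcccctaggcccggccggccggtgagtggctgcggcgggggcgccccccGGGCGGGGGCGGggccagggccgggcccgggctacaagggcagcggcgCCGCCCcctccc
Tet3: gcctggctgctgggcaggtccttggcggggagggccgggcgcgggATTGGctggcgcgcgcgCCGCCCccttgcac

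The Uhrf1 window held 2 CCAAT boxes, 3 GC boxes and 30 CG, and the whole Dnmt1 window 3 CCAAT boxes, 2 GC boxes and 26 CG. The Dnmt3b window held 3 GC boxes and 21 CG, and the Uhrf2 window 3 GC boxes and 23 CG, both with no E2F word and no CCAAT. The Tet3 window of 250 bases held 1 CCAAT, 1 GC box and 17 CG. The windows of Dnmt3a, Tdg, Tet1 and Tet2, not shown, also held no E2F word, and of these only that of Tdg held CCAAT. Of these genes, Dnmt3a and Tdg did not decrease under the main scaling given below. A link between these words and the changes was not tested. A match is a description of letters, not a binding site, and a window without a match says nothing about a factor.

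Libraries held 14928765 to 25262912 counts. Gm10800, a gene model that bears major satellite sequence, lay at 0.265 to 5.17 CPM (counts per gene scaled to a common library size) in the control and repressor libraries, 17.7 to 20.4 in the uninduced activator libraries and 2071 to 2931 in the induced ones. Within the control line it lay at 3.48 to 5.17 CPM uninduced and 0.740 to 1.49 CPM induced. Within the repressor line these ranges were 3.31 to 4.16 CPM and 0.265 to 0.448 CPM, so the groups overlapped in neither line. In the induced activator libraries the largest gene took 16.2 to 18.5% of the counts, against 9.28 to 12.1% in the other 15. Mitochondrial genes took 0.92 to 0.974%, against 0.582 to 0.676%. The median log2 change of all 16216 tested genes on activator induction was 0.004 with TMM, the main scaling, 0.05 with DESeq2 size factors, 0.11 with the upper quartile, -0.22 with total counts and -0.74 when libraries were scaled to mitochondrial genes. Of 8 fibroblast markers, 7 had a mean of at least 1 CPM in all 6 groups, the exception being Thy1. Of the 5 pluripotency markers Pou5f1 and Zfp42 were at 0 in all groups, and Nanog had a mean of at least 1 CPM in the 4 control and repressor groups. No epithelial marker reached 1 CPM, and Epcam was at 0 in all groups. The summed endothelial markers lay at 19.2 to 24.1 CPM in the induced activator libraries, with Pecam1 the only one of the 4 at a mean of at least 1 CPM, against 0.304 to 1.25 CPM elsewhere. Summed neural markers lay at 32.9 to 35.7 CPM uninduced and 53.1 to 54.0 induced in the repressor line, and at 34.3 to 36.1 and 21.1 to 23.3 in the activator line. Of the 4 neural markers only Tubb3 had a mean of at least 1 CPM in any group. Summed muscle markers lay at 5.43 to 5.53 CPM uninduced and 8.72 to 10.3 induced in the repressor line. That sum came from Des and Tnnt2, as Myod1 and Myog were at 0 there. Of the 4 blood markers, Cd68 and Csf1r had a mean of at least 1 CPM in all 6 groups. The part of these markers in the results was not tested. In bulk RNA, fewer cells that express a gene and less RNA per cell cannot be told apart.

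On activator induction, Dnmt3b, Tet3, Uhrf2 and Tet2 fell, Dnmt1 and Dnmt3a rose under the main scaling, and Uhrf1 and Tdg were not called. A gene is called here at an adjusted p below 0.05 (edgeR quasi-likelihood test, Benjamini-Hochberg over all tested genes). That was 4 lower, 2 higher and 2 not called of the 8 tested, beside a background of 75.3% of all tested genes called, 38.2% higher and 37.2% lower. The libraries of the induced and uninduced groups did not overlap for 5 of the 8, against 76.3% of all tested genes. Both shares for the 8 lie near the background, so that a member was called is not particular to the list. The median log2 fold change of the 8 was -0.12, against 0.004 over all tested genes. In the repressor and control lines none of the 8 was called.

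**Figure D1:**
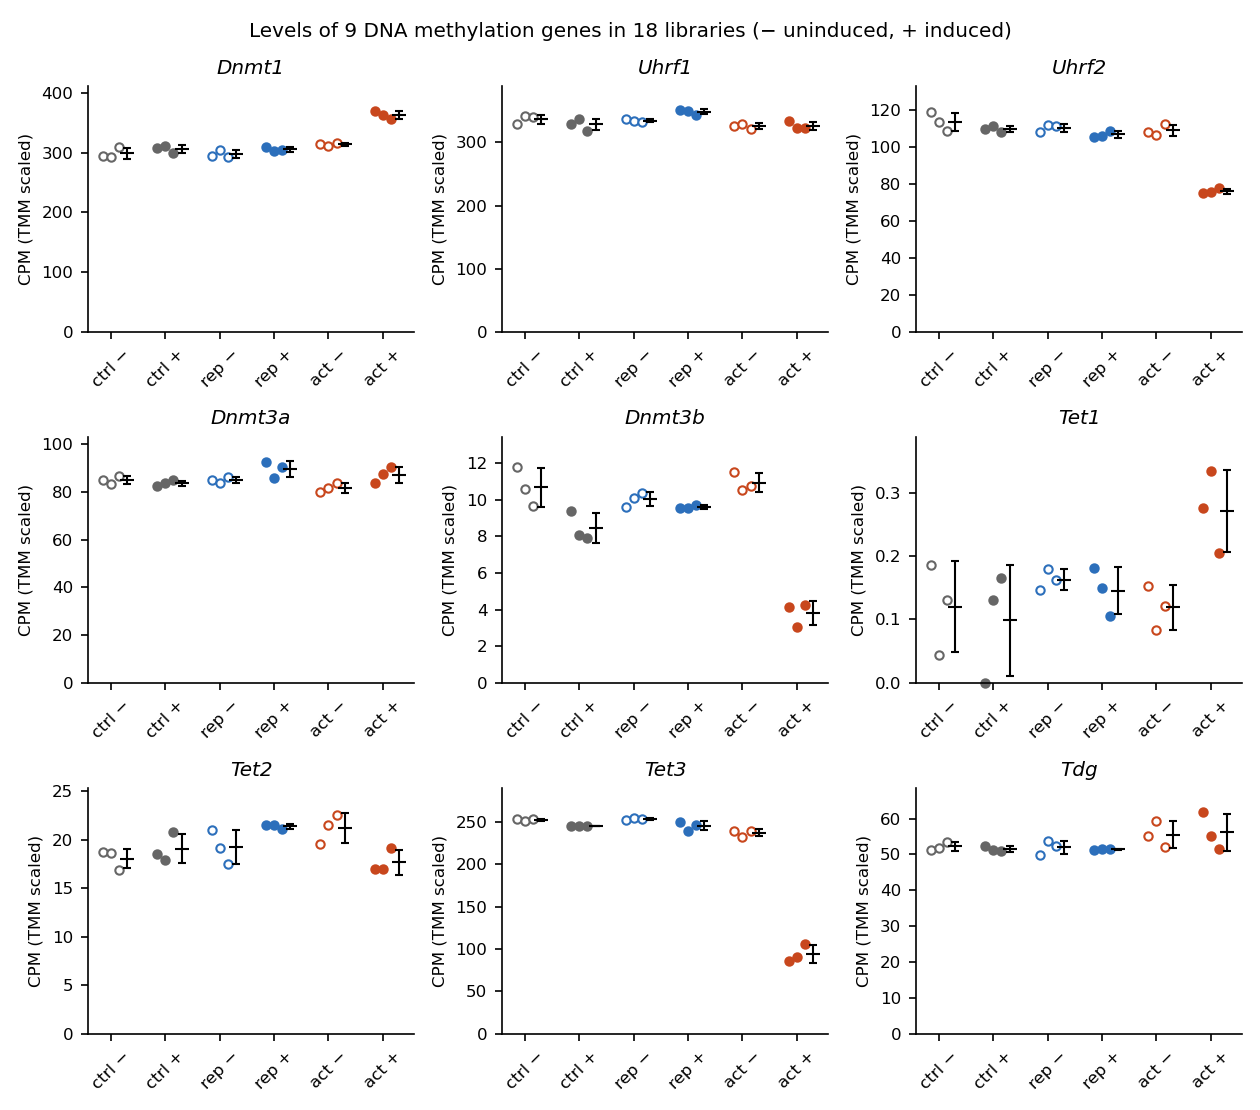
Level of each of the 9 genes in every library, in TMM-scaled CPM on linear axes that start at 0 (open points uninduced, filled points induced; black marks the mean and SD of 3 libraries). In the induced activator group Dnmt3b (3.07 to 4.24), Tet3 (86.4 to 106.4) and Uhrf2 (75.2 to 77.7) lie below all 15 other libraries, and Dnmt1 (357.4 to 370.5) lies above them. Tet1 (mean 0.271) also lies above them, on at most 5 counts per library.

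Dnmt1 (ENSMUSG00000004099.15, chromosome 9, 20907209 to 20959888, minus strand), the maintenance methyltransferase, lay between 293.2 and 316.2 CPM in the 15 libraries outside the induced activator group, with a median of 305.4 and a coefficient of variation of 2.63%. In the activator line the uninduced libraries held 315.0, 311.1 and 316.2 CPM (314.1 ± 2.66, SD, n = 3). The induced libraries held 370.5, 362.9 and 357.4 CPM (363.6 ± 6.57, n = 3), all above every other library. The log2 fold change was 0.21 (SE 0.027, 95% interval 0.16 to 0.27, adjusted p = 6.42e-11), but it was -0.01 (adjusted p = 0.694) with total counts and -0.53 with mitochondrial scaling. Its change exceeded that of the control line by 0.17 (adjusted p = 5.60e-05), with the same turn of sign under those scalings.

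Uhrf1 (ENSMUSG00000001228.14, chromosome 17, 56303321 to 56323486, plus strand), the partner of DNMT1, spanned only 318.9 to 351.8 CPM over the 15 libraries outside the induced activator group. The activator libraries held 326.4, 330.0 and 321.4 CPM without doxycycline and 333.8, 322.8 and 322.7 CPM with it, so the groups overlapped. The log2 change was 0.00 (95% interval -0.05 to 0.06, adjusted p = 0.956), relative to the main scaling. The call depended on the scaling in both directions: Uhrf1 was called higher with the upper quartile (0.11, adjusted p = 0.000253), and lower with total counts (-0.22, adjusted p = 8.44e-12) and with mitochondrial scaling (-0.74, adjusted p = 1.95e-46). The last 2 values were close to the median of all genes under their scaling.

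Uhrf2 (ENSMUSG00000024817.13, chromosome 19, 30030513 to 30093722, plus strand), the paralog of Uhrf1, fell on activator induction under all 5 scalings. Its 15 other libraries lay at 105.6 to 118.8 CPM. The uninduced activator libraries held 108.1, 106.7 and 112.6 CPM (109.1 ± 3.09, n = 3) and the induced ones 75.2, 75.7 and 77.7 CPM (76.2 ± 1.32, n = 3). The groups lay far apart relative to their spread. The log2 fold change was -0.51 (SE 0.035, 95% interval -0.58 to -0.44, adjusted p = 1.99e-23), and 44.1% of tested genes had a larger change in size. Its change differed from that in the control line by -0.46 (adjusted p = 5.15e-14). Over all alternatives the activator change lay between -1.26 and -0.41 and was called in each.

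Dnmt3a (ENSMUSG00000020661.15, chromosome 12, 3806007 to 3914443, plus strand), a de novo methyltransferase, varied little, from 79.8 to 92.5 CPM in the 15 other libraries. The activator libraries held 79.8, 81.8 and 83.9 CPM uninduced and 83.8, 87.3 and 90.6 CPM induced, so the groups overlapped by 1 pair of libraries. The log2 fold change was 0.10 (SE 0.036, adjusted p = 0.0134) with TMM, -0.13 (adjusted p = 0.00326) with total counts and -0.64 with mitochondrial scaling. The call was lost without uninduced activator replicate 1 (adjusted p = 0.111) or without induced activator replicate 3 (adjusted p = 0.130), with no filter (0.234) and in a fit of the 2 groups alone (0.0618). Its change exceeded that of the control line by 0.11 (adjusted p = 0.0421). That call was lost in 10 of 24 alternatives, with adjusted p from 0.0538 to 0.309: with no filter, in the compared groups alone, and without uninduced control replicate 1 or 3, induced control replicate 1 or 2, uninduced activator replicate 1 or 2, or induced activator replicate 2 or 3. It reversed with total counts and with mitochondrial scaling (-0.13 and -0.57).

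Dnmt3b (ENSMUSG00000027478.15, chromosome 2, 153649450 to 153687730, plus strand), the other de novo methyltransferase, had the largest fold change of the 8 tested genes. The control libraries held 11.8, 10.6 and 9.64 CPM uninduced and 9.38, 8.09 and 7.89 CPM induced. The repressor libraries held 9.60, 10.1 and 10.4 CPM uninduced and 9.54, 9.56 and 9.70 CPM induced. The activator libraries held 11.5, 10.5 and 10.8 CPM uninduced (10.9 ± 0.517, n = 3) and 4.13, 3.07 and 4.24 CPM induced (3.81 ± 0.647, n = 3). No other library came near the induced activator values, the lowest being 7.89 CPM. The gene fell 2.83-fold (log2 fold change -1.50, SE 0.113, 95% interval -1.73 to -1.28, adjusted p = 4.00e-21), and 12.5% of tested genes had a larger change in size. The difference from the change in the control line was -1.14 (95% interval -1.44 to -0.85, adjusted p = 1.89e-10). Within the control line the groups did not overlap, the log2 change was -0.36 (SE 0.093, adjusted p = 0.0505), and it passed the threshold in 7 alternatives, among them without uninduced control replicate 3 (adjusted p = 0.0413) and without induced control replicate 1 (0.0295). Its depth was 46 to 300 counts per library.

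Tet3 (ENSMUSG00000034832.15, chromosome 6, 83362373 to 83459084, minus strand) was the most abundant of the 3 TET genes in every group. The 12 control and repressor libraries and the 3 uninduced activator libraries lay at 232.3 to 255.1 CPM, with a coefficient of variation of 2.71%. The uninduced activator libraries held 239.7, 232.3 and 239.2 CPM (237.1 ± 4.13, n = 3) and the induced ones 86.4, 90.8 and 106.4 CPM (94.5 ± 10.5, n = 3). The gap between the groups was far larger than the spread in either. Tet3 fell 2.50-fold (log2 fold change -1.32, SE 0.038, 95% interval -1.40 to -1.24, adjusted p = 1.31e-30), and 15.2% of tested genes had a larger change in size. The difference from the control line was -1.28 (adjusted p = 8.09e-25). Introns of Tet3 hold the same-strand models 5430434F05Rik and Mir6374, whose reads cannot be told apart from those of Tet3 introns. 5430434F05Rik (chr6, 83417440 to 83420992) had 10.7 ± 0.794 CPM uninduced and 3.50 ± 0.598 CPM induced in the activator line (log2 fold change -1.61, SE 0.116, adjusted p = 4.05e-22), a fall beside that of the host gene.

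Tet2 (ENSMUSG00000040943.12, chromosome 3, 133463679 to 133545139, minus strand) moved less. The activator libraries held 19.6, 21.5 and 22.5 CPM uninduced and 16.9, 16.95 and 19.1 CPM induced, which did not overlap. The log2 fold change was -0.25 (SE 0.071, adjusted p = 0.00127). It was -0.14 and not called with upper-quartile scaling (adjusted p = 0.0617). The difference from the control line was -0.32 (adjusted p = 0.00352). Before induction Tet2 was already 0.21 (log2) higher in the activator than in the control line (adjusted p = 0.0190), a call lost without uninduced control replicate 3, or uninduced activator replicate 2 or 3, and with mitochondrial scaling.

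Tet1 (ENSMUSG00000047146.15, chromosome 10, 62804570 to 62908996, minus strand), the TET enzyme known from pluripotent cells, had 0 to 5 counts per library and 54 in all 18. The group sums were 7 and 7 counts in the control line, 10 and 8 in the repressor line, and 8 and 14 in the activator line, uninduced before induced. The activator ratio of 2.21 had an exact 95% interval of 0.867 to 6.09, which covers counting error only and includes no change. The induced activator libraries (mean 0.271 CPM) lay above the highest of the 15 others (0.186 CPM). With 0 to 5 counts per library, whether Tet1 changed was left unresolved at this depth.

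Tdg (ENSMUSG00000034674.18, chromosome 10, 82629828 to 82650799, plus strand) lay at 49.96 to 59.4 CPM in the 15 other libraries. The activator libraries held 55.2, 59.4 and 52.0 CPM uninduced and 61.7, 55.3 and 51.5 CPM induced, which overlapped fully. The log2 change was 0.01 (95% interval -0.08 to 0.10, adjusted p = 0.868) with TMM and -0.21 with total counts. Tdg shares 367 exonic bases with Glt8d2 on the opposite strand, and the strand setting of the counting is not given in the sources used here. Glt8d2 had 569 counts over all libraries and Tdg 19246. The pseudogene Tdg-ps had 372 counts.

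**Figure D2:**
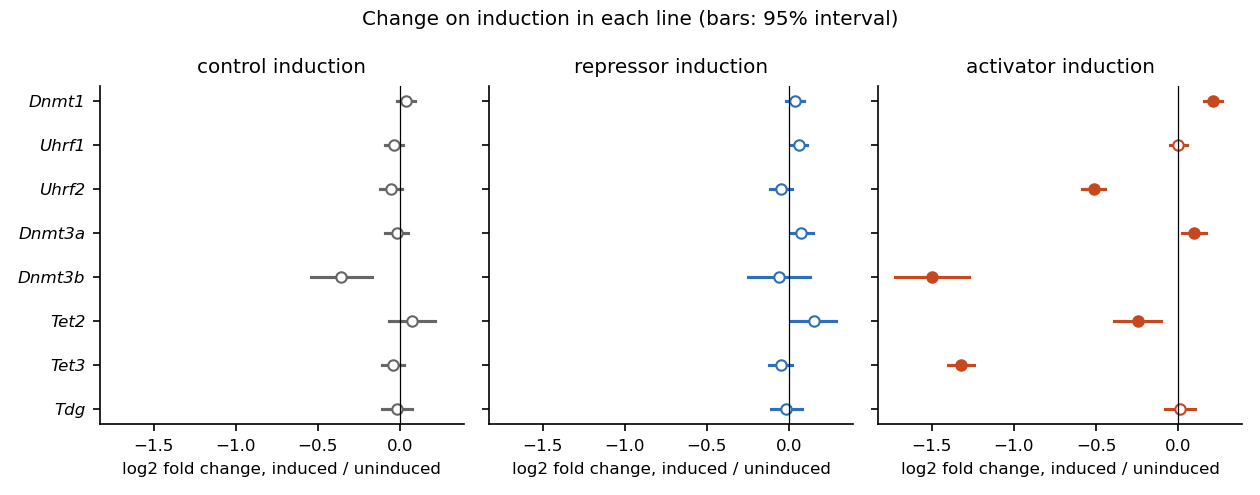
Log2 fold change of the 8 tested genes on induction of the control, repressor and activator lines, with 95% intervals (filled points: adjusted p below 0.05). In the activator line Dnmt3b (-1.50) and Tet3 (-1.32) lie farthest from 0, and no gene is called in the other lines.

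**Figure D3:**
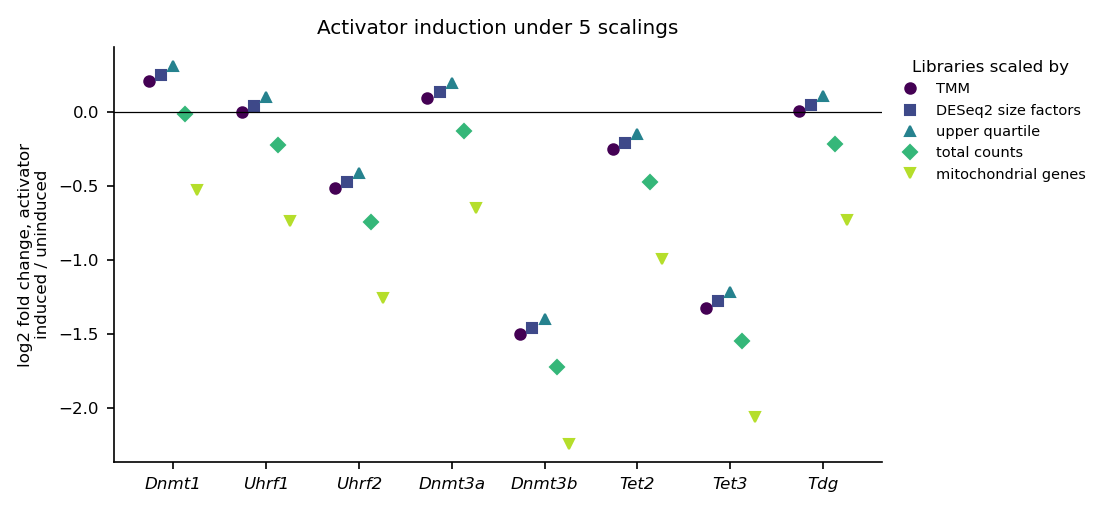
Log2 fold change on activator induction of the same 8 genes under 5 ways of scaling the libraries. Dnmt3b, Tet3, Uhrf2 and Tet2 lie below 0 under each, whereas Dnmt1 goes from 0.21 with TMM to -0.01 with total counts and -0.53 with mitochondrial genes.

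In the repressor line none of the 8 genes was called on induction, beside a background of 9.81% of tested genes, and 3 had an unadjusted p below 0.05. Those 3 were Uhrf1, Dnmt3a and Tet2. Uhrf1 held 337.0, 334.4 and 332.5 CPM uninduced and 351.8, 349.6 and 344.0 CPM induced, which did not overlap, with a log2 change of 0.06 (95% interval 0.00 to 0.11, adjusted p = 0.187). It was called under total counts (adjusted p = 0.0246). Dnmt3a held 85.1, 83.6 and 86.1 CPM uninduced and 92.5, 85.9 and 90.4 CPM induced, a log2 change of 0.08 (adjusted p = 0.199). Tet2 held 21.01, 19.2 and 17.5 CPM uninduced and 21.6, 21.5 and 21.1 CPM induced, a log2 change of 0.15 (adjusted p = 0.187). The groups did not overlap for 3 of 8 genes (Uhrf1, Tet2 and Tet3), against 26.7% of all tested genes. The largest upper bound of a change among the 8 was a log2 of 0.29, for Tet2. The change in the repressor line differed from that in the control line for none of the 8 (background 2.73%), with 2 at an unadjusted p below 0.05. Those were Uhrf1 (0.09, adjusted p = 0.226) and Dnmt3b (0.30, adjusted p = 0.311).

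In the control line none of the 8 was called either (background 0.463%), and 1, Dnmt3b, had an unadjusted p below 0.05. The groups did not overlap for 2 of 8, against 15.5% of all tested genes. For the difference between the activator and control changes, 4 were called lower and 2 higher (background 63.7% called, 33.0% lower and 30.8% higher). Before induction, 1 of 8 was called between the activator and control lines (Tet2, higher; background 19.5% called, 8.92% higher and 10.5% lower), with 5 at an unadjusted p below 0.05. The libraries did not overlap for 3 of 8, against 33.4% of all tested genes. Among those, Dnmt1 was 0.07 higher (adjusted p = 0.0516) and Tet3 0.09 lower on the log2 scale (log2 difference -0.09, adjusted p = 0.0587). None was called between the uninduced repressor and control lines (background 1.56%), where no unadjusted p was below 0.05 and the libraries of all 8 overlapped (18.4% of tested genes did not).

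Between genes, levels were compared per kilobase of exon. In the uninduced control group the order was Uhrf1 at 79.1 CPM per kb, Dnmt1 at 40.5, Tet3 at 15.1, Uhrf2 at 13.2, Tdg at 9.72, Dnmt3a at 5.10, Dnmt3b at 2.09, Tet2 at 1.07 and Tet1 at 0.0078. The maintenance pair thus stood above every other gene, and the same order was found in 5 of the 6 groups. In the induced activator group Tet3, at 5.66 CPM per kb, came after Tdg at 10.4 and Uhrf2 at 8.87, and Dnmt3b, at 0.747, came after Tet2 at 1.05. With the length of the longest transcript in place of the exon union, Uhrf2 stood above Tet3 in all groups, Tet2 above Dnmt3b in both groups induced for 24 h, and Dnmt3a above Tet3 in the induced activator group.

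Shares within a family do not depend on the scaling of libraries. Dnmt3b made up 32.0, 29.5 and 29.5% of the Dnmt3 level per kb in the uninduced activator libraries (30.3 ± 1.43%, n = 3) and 13.8, 10.3 and 13.3% in the induced ones (12.5 ± 1.90%). The same share was 29.0 ± 2.29% and 24.8 ± 1.98% in the control line and 27.8 ± 0.781% and 25.9 ± 0.737% in the repressor line. Tet2 made up 7.46, 8.39 and 8.53% of the TET level in the uninduced activator libraries and 16.2, 15.5 and 15.1% in the induced ones, as the Tet3 share went from 91.8 ± 0.566% to 84.1 ± 0.617%. The TET sum itself was 15.5 ± 0.245 CPM per kb and then 6.73 ± 0.698. The Uhrf2 share of the UHRF level was 14.2 ± 0.506% and then 10.4 ± 0.309%. In each family the induced activator libraries did not overlap with any other group, as the plot of shares shows. A share shows unequal change within a family and not which gene of it changed.

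**Figure D4:**
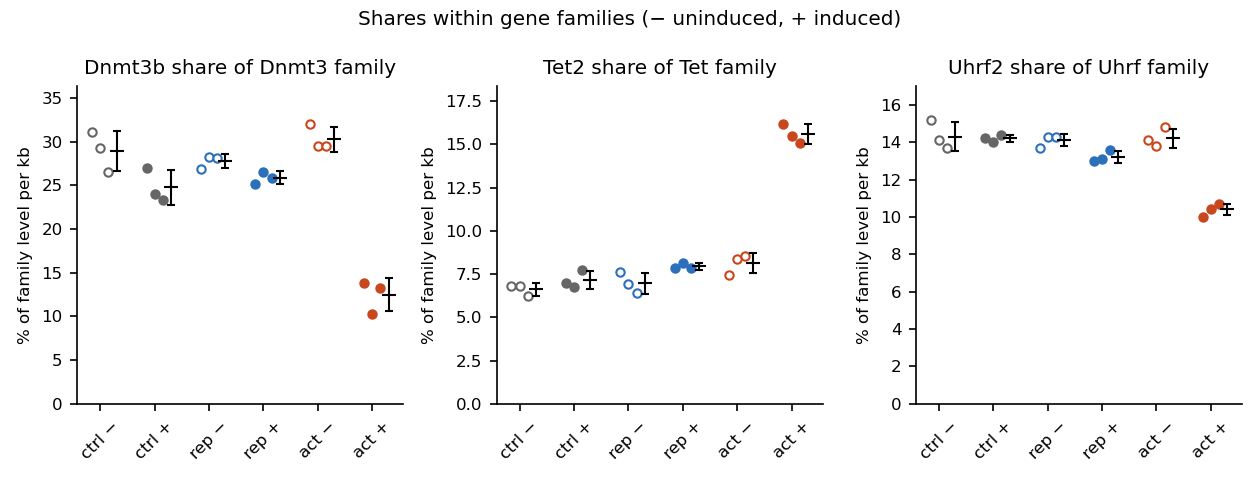
Share of Dnmt3b, Tet2 and Uhrf2 in the summed level per kb of their families in every library, in percent (open uninduced, filled induced; black marks the mean and SD of 3 libraries). The Dnmt3b share is 10.3 to 13.8% in the induced activator libraries and 23.3 to 32.0% in all others.

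Across the 18 libraries, the tested genes with a mean of at least 1 CPM were ranked by Pearson's r of log2 CPM with each member, as a description, since the libraries share lines and scaling. Of 13169 genes, the likest to Tet3 were Tle3 (r = 0.998), a transcriptional corepressor, and Irf2bp2 (0.997). The likest to Uhrf2 were Ice1 and Rnf139 (both 0.992), to Dnmt3b Sapcd2 (0.987) and Stk11 (0.979), and to Dnmt1 Alyref (0.981), an mRNA export factor, and Nup93 (0.980), a nuclear pore protein. The highest values were lower for Uhrf1 (Kremen1, 0.867), Dnmt3a (C030015A19Rik, 0.848, and Hace1, 0.820), Tet2 (Gm2694, 0.832, and Jak3, 0.822) and Tdg (U2af1, 0.828, and Deaf1, 0.802). Among the members, r of Dnmt3b with Tet3 was 0.95 over the 18 libraries and -0.02 without the induced activator libraries. For Uhrf2 with Tet3 it was 0.983 and 0.42, and for Dnmt1 with Uhrf2 -0.949 and -0.381. Some lower values moved the other way, as for Uhrf1 with Dnmt3a (0.347 and 0.629). A high r can thus reflect the gap between the induced activator libraries and all others, which the ranking above includes.

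Around the 9 genes, the recruiters and cofactors of methylation split on activator induction, with 6 higher, 5 lower and 2 not called of 13 tested (median log2 change 0.04), beside 38.2% of all tested genes higher and 37.2% lower. With total counts these counts were 1 and 10 (all genes 24.4% and 49.9%), and with mitochondrial scaling 0 and 13 (all genes 8.66% and 80.0%). These 3 pairs of shares are the background of the next lists too. Zfp57, the zinc finger protein that keeps imprints methylated, had 46.7 ± 2.87 CPM before and 16.9 ± 1.44 CPM after induction, a fall of the log2 level by -1.45 (SE 0.059, adjusted p = 1.20e-37). Setdb1, an H3K9 methyltransferase, fell by 0.88 on the log2 scale. Pcna, the replication clamp that binds DNMT1, rose by 0.41 and Lig1, a ligase of replication, by 0.30 with TMM, and both turned negative with mitochondrial scaling (-0.33 and -0.44). Lig1 was not called with total counts (0.07, adjusted p = 0.0744). Of the 8 readers of methylated DNA, 1 rose and 6 fell (median -0.28), against 1 and 7 with total counts and 0 and 8 with mitochondrial scaling. Zbtb33 (Kaiso) fell by 1.35, from 43.2 to 16.99 CPM, and Zbtb4 by 0.70.

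The base excision repair list holds other glycosylase genes and Gadd45 genes beside genes of the steps that follow TDG. Of its 11 tested genes, 3 rose and 8 fell (median -0.42), beside 38.2% and 37.2% of all tested genes. Smug1 and Ung, both uracil glycosylase genes, fell by 0.96 and 0.79 on the log2 scale, and Xrcc1 rose by 0.42 and Polb by 0.21 with TMM, with a turn to -0.32 and -0.53 under mitochondrial scaling and, for Polb, to -0.02 with total counts. Polb also lost its call without uninduced activator replicate 1. With total counts 1 was higher and 8 lower, and with mitochondrial scaling 0 and 11, where 80.0% of all tested genes were lower. Of 7 tested partners and regulators of TET enzymes, 4 rose and 1 fell (median 0.29; all genes 38.2% and 37.2%), against 2 and 1 with total counts (median 0.07) and 0 and 6 with mitochondrial scaling (all genes 88.6% called). The one that fell was Ogt, the O-GlcNAc transferase that binds TET proteins, with 205.5 ± 3.84 CPM uninduced and 94.8 ± 5.49 CPM induced (log2 change -1.11, SE 0.034, adjusted p = 1.16e-46). Idh1 and Idh2, which make the TET cosubstrate 2-oxoglutarate, rose by 0.56 and 0.34 with TMM, with a turn to -0.18 and -0.40 under mitochondrial scaling.

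The genes of methyl donor metabolism had 7 higher and 4 lower of 13 tested (median 0.13; all genes 38.2% and 37.2%), which became 4 and 8 with total counts and 1 and 12 with mitochondrial scaling. Mat2a, which makes S-adenosylmethionine, the methyl donor of the DNMTs, fell to 110.9 ± 4.25 CPM, with 348.9 ± 2.60 CPM in the uninduced libraries (log2 change -1.65, SE 0.030, adjusted p = 1.99e-62). Gnmt, which uses up S-adenosylmethionine, rose by 2.74 from a low level (0.267 to 1.93 CPM), and Ahcyl2 rose by 0.47, with a turn to -0.27 under mitochondrial scaling. Of 18 G1/S and replication genes, measured because Dnmt1 and Uhrf1 follow the cell cycle, 15 rose and 2 fell (median 0.38), beside 38.2% of all tested genes higher and 37.2% lower. These were 12 and 3 with total counts, and 0 and 16 (median -0.36) with mitochondrial scaling. Cdc45 rose by 0.69 and Mcm4 by 0.66 with TMM, with values of -0.05 and -0.08, not called, under mitochondrial scaling. In the same list, E2f2 and Ccne1 fell by 0.77 and 0.26. The falls of Zfp57, Setdb1, Zbtb33, Zbtb4, Smug1, Ung, Ogt, Mat2a, E2f2 and Ccne1 kept their direction and their call in all alternatives that were run.

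**Figure D5:**
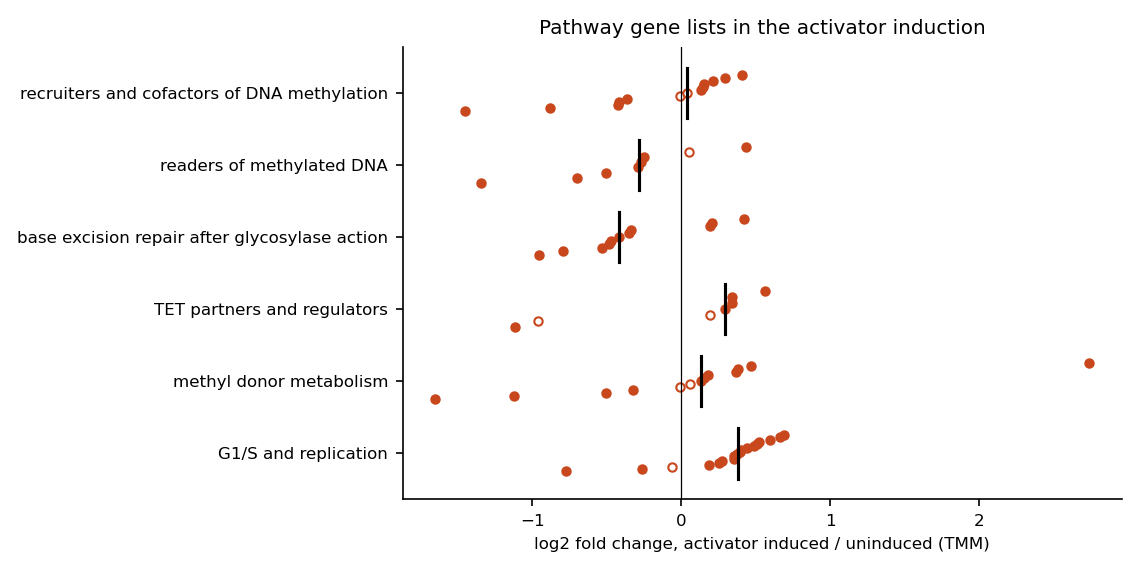
Log2 fold change on activator induction of the tested genes of 6 pathway lists with TMM scaling (filled points: adjusted p below 0.05; black lines: list medians). The medians run from -0.42 for base excision repair to 0.38 for G1/S and replication.

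On repressor induction the readers of methylated DNA had 2 higher and 0 lower of 8, beside 5.21% of all tested genes higher and 4.59% lower. Mbd1 had 21.6 ± 0.745 CPM uninduced and 28.5 ± 1.55 CPM induced, a rise of 0.40 in log2 (SE 0.060, adjusted p = 3.55e-07), and its change differed from that of the control line by 0.38 (adjusted p = 0.00335). Zbtb4 rose by 0.31 (adjusted p = 6.72e-05), with a difference from the control line of 0.31 (adjusted p = 0.0225) that was lost in several alternatives (highest adjusted p = 0.115). Methyl donor metabolism had 0 higher and 5 lower of 13, led by Mthfd2 (fell by 0.25) and Shmt2 (fell by 0.24), the mitochondrial one-carbon enzymes. Mthfd2 went from 160.4 ± 2.09 to 135.2 ± 1.25 CPM, beside 140.4 ± 2.72 CPM in the uninduced control libraries. Its change differed from that of the control line by -0.33 (adjusted p = 2.09e-08). Base excision repair had 0 higher and 2 lower of 11, Apex1 (-0.17) and Lig3 (-0.11). The TET partners had 0 and 2 of 7, Cxxc5 (-0.23) and Ogt (-0.13), and the recruiters 1 and 0 of 13, Setdb1 (0.10, adjusted p = 0.0490). The call of Setdb1 was lost in most of its 18 alternatives (highest adjusted p = 0.464). Those of Lig3, Cxxc5 and Ogt were each lost in several (highest adjusted p = 0.275, 0.212 and 0.107). None of the 18 G1/S genes was called. In the control line no gene of these lists was called.

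Before induction, 12 of the 70 tested genes of the 6 pathway lists (17.1%) were called between the activator and control lines, 5 higher and 7 lower, near the 19.5% of all tested genes. Elsewhere the share of the 70 was higher: 88.6% on activator induction (all genes 75.3%) and 17.1% on repressor induction (9.81%). For the activator minus control change it was 91.4% (63.7%). These gaps were not tested. Hells (-0.08), Mcm4 (-0.09), Gadd45b (-0.19), Idh1 (-0.38), Samhd1 (-0.32), Ahcyl1 (-0.35) and Mat2b (-0.14) were lower on the log2 scale, and Mbd1 (0.17), Ung (0.16), Shmt1 (0.25) and Mtrr (0.19) were higher. The differences of Idh1, Samhd1, Ahcyl1 and Shmt1 were called in every alternative, and each of the others was lost in at least 1. That of Hells was lost in most of its 17 alternatives (highest adjusted p = 0.202), and that of Mbd1 in many (0.598). In the uninduced repressor line Idh1 (0.22) and Mthfd2 (0.19) were higher than in the control line, calls that mitochondrial scaling ended. Of 16 germline genes that DNA methylation is known to silence in somatic cells, 2 passed the filter, Ddx4 and Brdt, and neither was called on any induction. Ddx4 was 1.14 (log2) higher in the uninduced activator than in the uninduced control line (3.37 ± 0.340 against 1.59 ± 0.399 CPM, adjusted p = 6.54e-06). DESeq2 gave no adjusted p for it, and the other alternatives called it.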

How the data were processed

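The authors deposited 1 table of whole-number read counts per gene for 18 libraries of stranded, rRNA-depleted total RNA, read as 150 bp pairs per the labels' protocols. The build was mm10, per the submitters' processing notes. Which aligner, counter, annotation and strand mode made the counts is not given in the sources used here, so counts of overlapping genes are uncertain. IDs were matched without version to GENCODE M21 (47310 of 47937), from which coordinates and exon lengths were taken. Counts were fitted with edgeR 4.0.16 in R 4.3.3 (TMM, filterByExpr, robust quasi-likelihood test, 1 coefficient per group, 12 residual degrees of freedom, common biological coefficient of variation 0.0246), and p-values were adjusted by Benjamini-Hochberg over all 16216 tested genes and called at 0.05. The 7 comparisons were induction in each line, its difference from the control line, and the uninduced lines. Levels are CPM with TMM factors. The exact permutation test with 3 against 3 cannot go below p = 0.1 and was used for no call. The fit was run on simulated counts in which a small part of the genes changed, in equal number up and down. That setting cannot examine how the results depend on the scaling. No library was left out or found to be a copy of another. Alternatives were other scalings, filters, limma-voom 3.58.1, DESeq2 1.42.0, a replicate block, the compared groups alone and leaving out each library.

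The members and gene lists were chosen with earlier results of these data known, and no list was tested as a set. All 9 members were described. Of each pathway list, up to 2 higher and 2 lower called genes of largest change are named per comparison, and the 2 genes with the highest r with a member. The text gives promoter windows from RefSeq (GRCm38.p6), and protein sequences were not analysed here. Overlapping gene models, as around Tet3 and Tdg, were named after their values were seen. A few genes that these rules pick are not reported here.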

Additional observations from a re-analysis of the deposited data

Results flagged for a closer look

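Of the 8 tested genes, 6 changed differently on induction in the activator line than in the control line, by the interaction term of the edgeR fit. The difference in log2 change, activator minus control, was -1.28 for Tet3, -1.14 for Dnmt3b, -0.46 for Uhrf2, -0.32 for Tet2, 0.17 for Dnmt1 and 0.11 for Dnmt3a. Of all tested genes, 63.7% were called in this comparison. Time of induction differed between these lines (6 against 24 h), so effector and time cannot be told apart. The Dnmt3a difference lost its call in 10 of 24 alternatives and reversed in 2, and the Dnmt1 difference reversed in the same 2, with total counts and with mitochondrial scaling.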

How the results depend on the processing

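For the 8 tested genes in 7 comparisons, 1088 alternative log2 fold changes were computed, of which 959 kept direction and call, 19 lost the call, 30 gained one and 16 reversed with a call on at least 1 side. Another 64 changed sign with no call on either side, at values of at most 0.073 in size. DESeq2 gave no adjusted p for 2 of the 1088, which are counted among the 959. The 16 reversals came from 2 scalings, with total counts and with mitochondrial genes in that order. On activator induction they gave -0.012 and -0.527 for Dnmt1, -0.222 and -0.737 for Uhrf1, -0.127 and -0.644 for Dnmt3a, and -0.214 and -0.729 for Tdg. For the activator minus control change they gave -0.068 and -0.508 for Dnmt1, -0.205 and -0.643 for Uhrf1, -0.128 and -0.567 for Dnmt3a, and -0.217 and -0.652 for Tdg.

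On activator induction, 2 genes were called higher, against 4 with the upper quartile, 0 with total counts, 0 with mitochondrial scaling, 1 with no filter, 1 in the compared groups alone and 1 to 2 when 1 library was left out. The 4 called lower became 7 with total counts and 8 with mitochondrial scaling, whereas Tet2 lost its lower call with the upper quartile (adjusted p = 0.0617). For the activator minus control change, the 2 higher became 3 with DESeq2 size factors, the upper quartile and DESeq2 (Uhrf1 added), 0 with total counts, 0 with mitochondrial scaling, 1 with no filter, 1 in the compared groups alone and 1 to 2 without 1 library, and the 4 lower became 7 and 8 under those 2 scalings. On repressor induction total counts called 1 gene higher (Uhrf1). On control induction 1 gene, Dnmt3b, was lower with DESeq2 size factors in edgeR, with mitochondrial scaling, with no filter, at 1 CPM in 3 libraries and with a replicate block across lines, and 0 to 1 without 1 library. For the uninduced activator line, the 1 higher became 2 with the upper quartile, total counts, the 1 CPM filter, the replicate block, the compared groups alone and limma-voom, 0 with mitochondrial scaling and 0 to 1 without 1 library. There, 1 gene was called lower with DESeq2 size factors, no filter, the replicate block, the compared groups alone and limma-voom, and 4 with mitochondrial scaling. The cause was not tested.

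The replicate numbers were not taken to pair the libraries, since deviations of same-numbered libraries of a line correlated at -0.039 to 0.058 over 9 pairs, none over 0.1. As a hint from the data the other way, 11 of 18 libraries correlated best with their own number, where arbitrary numbers would give 6. The replicate block moved the all-gene calls on activator induction from 6190 higher and 6028 lower to 6187 and 6033, on control induction from 41 and 34 to 59 and 53, on repressor induction from 845 and 745 to 895 and 835, and between the uninduced repressor and control lines from 140 and 113 to 175 and 146. On activator induction the all-gene calls were 3955 higher and 8094 lower with total counts, and 1405 and 12966 with mitochondrial scaling. Over all alternatives the share of genes called was 46.2 to 88.6% on activator, 4.32 to 14.3% on repressor and 0.211 to 0.691% on control induction. With no filter Tet1 had a log2 change of 1.07 (adjusted p = 0.214) on activator induction, and depth limits it and, with 46 to 300 counts per library, Dnmt3b.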
